A study of Mus musculus with 61 samples.

Results

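Adipose tissue of B6 mice was set against adipose tissue of Cast mice, both founder strains of the Diversity Outbred population, after feeding on a high-fat, high-sugar diet that the labels give as 45 percent fat. All 8 libraries labelled B6 and all 7 labelled Cast were used, which makes 15 of the 61 libraries of the series. The 46 libraries of the other 6 founder strains, fed alike, served to estimate the spread between libraries. B6 is a classical laboratory strain and Cast a wild-derived strain of the castaneus subspecies. The labels name no sex, age, fat depot, litter or batch for either strain, and they number the libraries without saying that each came from a separate mouse, so p-values measure the spread between these libraries. The comparison asks which genes of the tissue differ between the strains when both are fed the same diet.

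White fat stores triglyceride in adipocytes and reports the size of the store through leptin, a hormone that restrains appetite and whose transcript rises with fat mass. Brown and beige adipocytes hold many mitochondria and the uncoupling protein Ucp1, and they burn fatty acids to make heat. Progenitor cells, vessels, macrophages and lymphocytes share the tissue, and in obesity macrophages gather around lipid-laden cells while collagen is laid down. In bulk tissue, fewer cells of a type and less RNA per cell cannot be told apart.

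The 15 libraries held 31185737 to 61277576 counts. Levels are given in CPM, a gene's counts relative to the library's total, scaled for library composition by TMM. The adipocyte hormone transcript Adipoq ran from 1185 to 2964 CPM with a median of 2293 in B6 and stood at 1877 to 2578 CPM in 5 of the 7 Cast libraries. Cast replicates 5 and 6 stood apart with 221 and 407 CPM of Adipoq, so every result is also given, or was checked, without them. Xist, the RNA that coats the inactive X chromosome, stood at 398 to 618 CPM of the library total in B6 replicates 1 to 4 and Cast replicates 1 to 3, and at 7.33 CPM or less in the other B6 and Cast libraries except Cast replicate 8, which had 52.8 CPM together with 99.6 CPM of the Y chromosome transcript Ddx3y. B6 replicates 5 and 6 carried transcripts of male genital ducts, with 278 and 894 CPM of Crisp1 and 974 and 3409 CPM of Akr1b7, whose B6 against Cast difference is therefore not described. The part of these differences between libraries in the results was not tested unless a value is given.

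The strains differed across much of the transcriptome. Of 18603 genes tested with edgeR's quasi-likelihood test, 9769 (52.5%) were called at an adjusted p under 0.05, of which 4937 (26.5%) were higher and 4832 (26.0%) lower in Cast. Fitted to the B6 and Cast libraries alone, 4056 genes were higher and 3946 lower. In the fit over all 61 libraries, large differences were more often falls in Cast. There were 1539 called genes over 2-fold higher against 2470 over 2-fold lower, and 263 over 8-fold higher against 579 over 8-fold lower. How the authors assigned reads of Cast sequence is not given in the sources used here, and its part in these differences was not tested. Every Cast library lay above every B6 library for 1323 genes (7.11%), and every Cast library lay below every B6 library for 1902 genes (10.2%). With libraries scaled to their totals instead, which moved the median difference of all genes by −0.12 on the log2 scale, these numbers were 825 and 2211. Without Cast replicates 5 and 6, 4303 genes (22.8%) were higher and 4612 (24.4%) lower, and 7985 genes were called in the same direction in both fits. The gene groups below are read against these shares of all genes called and against the median log2 fold change of all genes. That median was 0.01 with all libraries and −0.01 without Cast replicates 5 and 6.

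**Figure D1:**
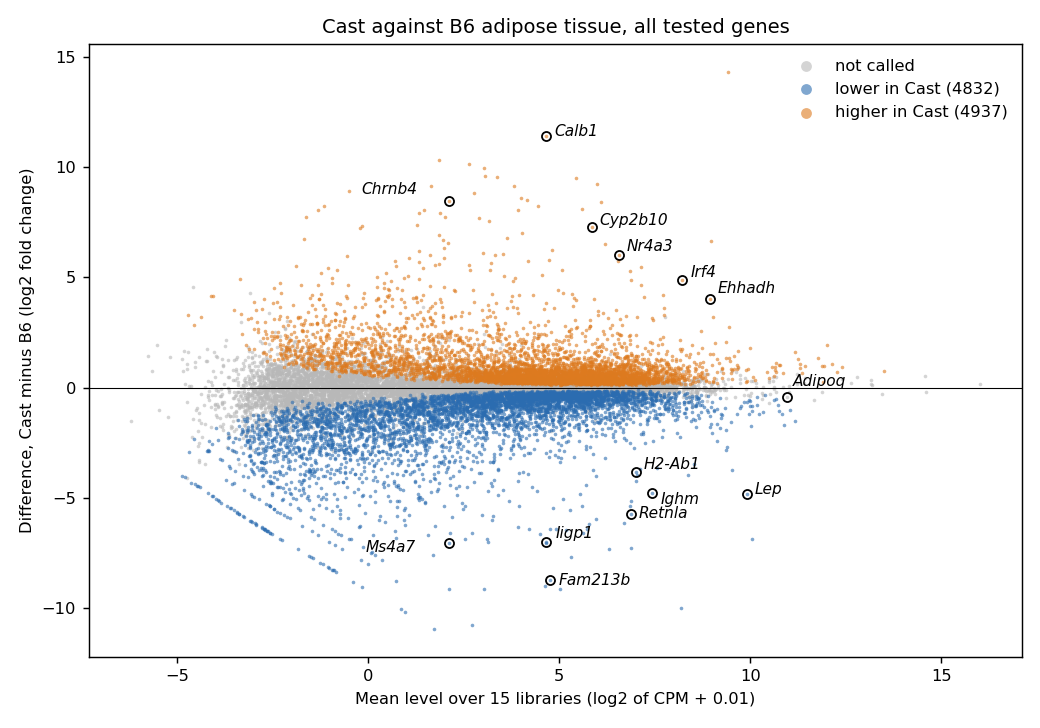
Difference of Cast from B6 (log2 fold change, vertical axis) against the mean level of each gene over the 15 libraries (log2 CPM, horizontal axis) for all 18603 genes tested. Grey points were not called, orange points are the 4937 genes called higher and blue points the 4832 called lower in Cast, and the labelled genes are described in the text. The blue cloud reaches below −3 with more genes than the orange cloud holds above 3.

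The 15 libraries separated by strain. The first principal component of log2 CPM held 45.7% of the variance and placed all B6 libraries on one side and all Cast libraries on the other. The second, with 15.1%, placed B6 replicates 1 to 4 and Cast replicates 1 to 3 on one side and the other 8 libraries on the opposite side, which is also how Xist divided them. Cast libraries varied more among themselves than B6 libraries: the median SD of log2 CPM was 0.46 in Cast and 0.28 in B6, and 77.3% of genes had the larger SD in Cast. Without replicates 5 and 6 the median SD of Cast was 0.36, and 65.0% of genes had the larger SD in Cast.

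The leptin transcript was far lower in Cast. Lep (chromosome 6, 29060220 to 29073877 on GRCm38), the leptin gene, ran from 427 to 3129.5 CPM with a median of 1724 in B6 and from 0.72 to 169 CPM with a median of 69.9 in Cast. The lowest B6 library exceeded the highest Cast library by more than 2-fold, so the strains did not overlap. The log2 fold change was −4.81 ± 0.84 (adjusted p = 3.38e-06), and −4.33 ± 0.83 without Cast replicates 5 and 6, which held 1.06 and 0.72 CPM. Within B6, replicates 1 to 4 had 427 to 1112 CPM and replicates 5 to 8 had 2336 to 3129.5 CPM, so the difference stood against both sets of B6 libraries.

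Genes whose transcripts have been linked to the expansion of fat mass were mostly lower in Cast too. Of 8 such genes tested, 6 were lower and 1 higher, where 26.0% and 26.5% of all tested genes were called, with a median log2 fold change of −2.04 (−1.88 without Cast replicates 5 and 6). Npr3, the clearance receptor for natriuretic peptides, ran from 432 to 1765 CPM with a median of 1149 in B6 and from 29.7 to 368 CPM with a median of 173 in Cast. Every B6 library was above every Cast library, with a log2 fold change of −2.68 ± 0.50 (adjusted p = 1.13e-05). Bmp3, a secreted member of the BMP family, fell by 2.41 on the log2 scale from a B6 mean of 73.1 ± 25.5 CPM (SD, n = 8) to 13.7 ± 6.33 CPM (SD, n = 7). Mest, an imprinted gene of growing adipocytes that shares reads with other loci, had 17.8 to 1327 CPM in B6 and 4.32 to 101 CPM in Cast, a log2 fold change of −3.94 ± 0.66 with ranges that overlapped. Sfrp5, a secreted Wnt inhibitor, likewise spread widely in B6 (3.76 to 301 CPM) and fell to a mean of 13.6 CPM (log2 fold change −3.21 ± 1.01, adjusted p = 0.00636). Naa20, a subunit of an N-terminal acetyltransferase, was the member that went the other way, at 0.64 ± 0.13.

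Hormones and markers of the adipocyte divided by gene. Of 24 adipocyte hormones and markers, 5 were higher, 6 lower and 13 not called, with a median of −0.27, and 0.05 without Cast replicates 5 and 6. These counts were near the shares of all tested genes, of which 26.5% were called higher and 26.0% lower. Adipoq had a log2 fold change of −0.43 ± 0.28 with all libraries and −0.01 ± 0.22 without those 2 (adjusted p = 0.965). Nnat, the imprinted gene of neuronatin, fell from 93 to 318 CPM to 0.787 to 46.1 CPM with no overlap (log2 fold change −3.96 ± 0.76, adjusted p = 1.51e-05). Apln, which encodes the peptide hormone apelin, also fell with no overlap, by 2.39 on the log2 scale. Cfd, which encodes adipsin, a serine protease of the complement pathway secreted by fat, rose in Cast by 1.34 ± 0.42, from 442 to 3764 CPM in B6 to 1760.5 to 7441 CPM. Cast replicates 5 and 6 were the 2 lowest Cast libraries for Cfd, and B6 replicates 5 to 8 the 4 lowest B6 libraries. Agt, the angiotensinogen gene, was called higher at 1.95 ± 0.49, but it stood at 939 and 466 CPM in Cast replicates 5 and 6, and without them the difference was 0.97 ± 0.48 (adjusted p = 0.0901).

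**Figure D2:**
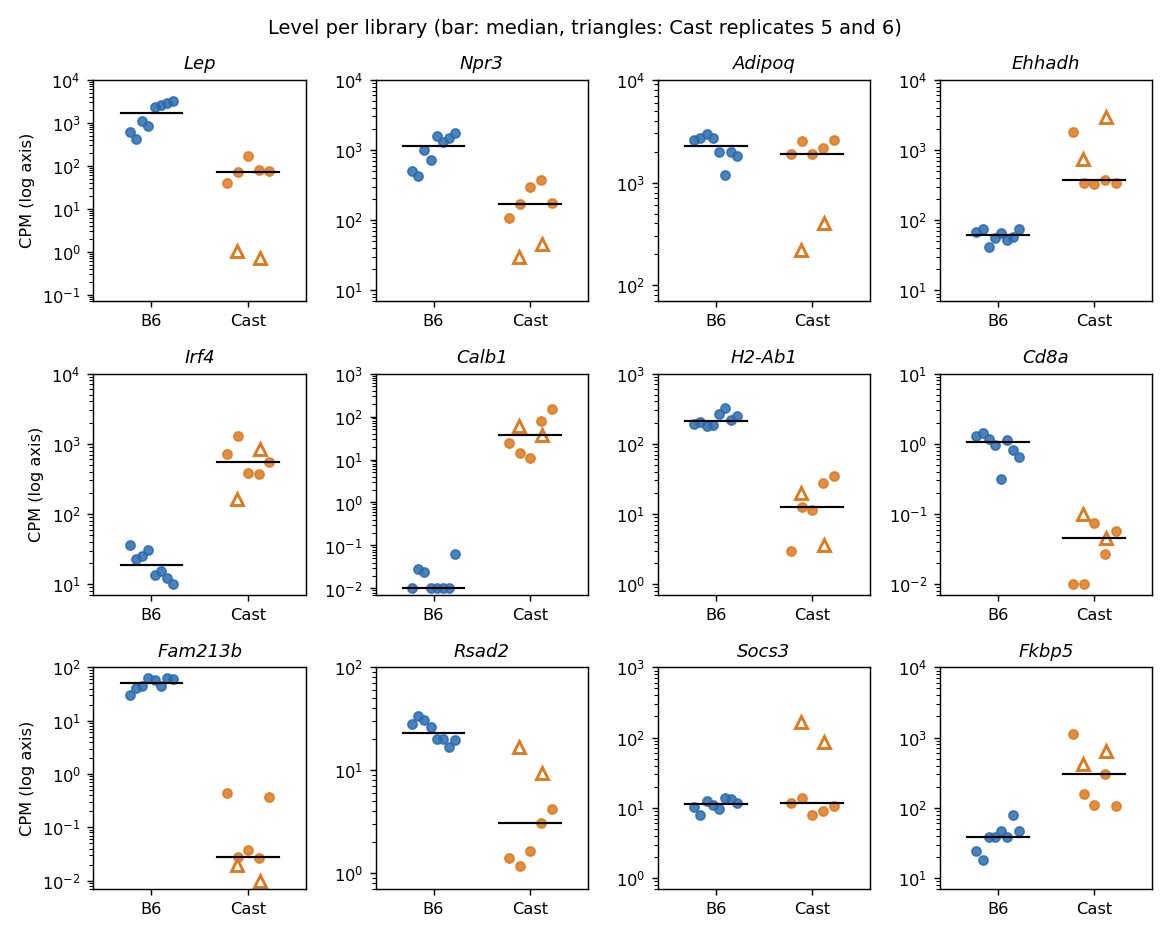
Level of 12 genes in each library (CPM on a log axis, 1 point per library, values under 0.01 drawn at 0.01) for the 8 B6 libraries in blue and the 7 Cast libraries in orange, with Cast replicates 5 and 6 as open triangles and the group medians as bars. Lep, Npr3, H2-Ab1, Cd8a and Fam213b show no Cast library as high as any B6 library, and Ehhadh, Irf4 and Calb1 show the reverse.

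Genes that burn fatty acids were higher in Cast. The list for this process had 29 tested members, of which 19 rose and 2 fell, with a median log2 fold change of 0.96 (22 rose and 7 were not called, with a median of 1.19, without Cast replicates 5 and 6). Ehhadh (chromosome 16, 21761287 to 21787844), the bifunctional enzyme of peroxisomal beta-oxidation, ran from 41.4 to 75.7 CPM with a median of 62.2 in B6 and from 328 to 2975 CPM with a median of 368 in Cast. No library overlapped, and the log2 fold change was 4.0 ± 0.45 (adjusted p = 1.08e-10). Cast replicates 1 and 6 held the 2 highest values, and without replicates 5 and 6 the log2 fold change was 3.38 ± 0.43. Pdk4 is a kinase that holds back the use of pyruvate inside the mitochondrion, so that fatty acids are burned instead. It rose from 94 to 330.3 CPM in B6 to 519.6 to 1926 CPM in Cast without overlap (log2 fold change 2.75 ± 0.44, adjusted p = 4.56e-07). Ppargc1a, a coactivator of mitochondrial genes, rose by 2.50 ± 0.41, from 2.51 to 6.24 CPM to 14.3 to 70.3 CPM, again without overlap. Cpt1b, the muscle and brown fat form of the enzyme that admits fatty acids to the mitochondrion, rose by 2.78 ± 0.73 with overlapping ranges, and it shares reads. The peroxisomal transporter Abcd2 was the called member farthest the other way at −0.86 ± 0.26, a call that was lost without Cast replicates 5 and 6 (adjusted p = 0.056).

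Genes of the respiratory chain were higher too. Of 47 nuclear genes for its subunits, 40 were higher in Cast and 7 not called, with a median of 0.73 (43 higher and 4 not called, with a median of 0.96, without Cast replicates 5 and 6). Cycs, the electron carrier cytochrome c, had 61 to 88.2 CPM in B6 and 217 to 487 CPM in Cast, a difference of 2.21 ± 0.23 on the log2 scale, in an estimate that shares reads. Uqcrc1, a core subunit of complex III, rose by 1.27 ± 0.26, and its 2 lowest Cast libraries, replicates 5 and 6, had 157 and 205 CPM, the first inside and the other just above the B6 range of 109 to 203 CPM. Of 13 genes encoded in the mitochondrial genome, 5 rose and 1 fell, and 9 rose and 1 fell without those libraries. The gene that fell in both fits, mt-Co2, shares reads, and it is described below together with its nuclear copy.

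Genes of heat-producing adipocytes were higher as well, with large differences between libraries. Of 16 tested, 11 rose and 5 were not called, with a median log2 fold change of 2.41 (12 rose and 4 were not called, with a median of 2.68, without Cast replicates 5 and 6). Ucp1 itself was not called with all libraries, at 3.18 ± 1.40 (adjusted p = 0.0514), and was called without those 2, at 3.67 ± 1.45 (adjusted p = 0.0323). Leaving out B6 replicate 1 or Cast replicate 5, 6, 7 or 8 alone also made it pass (log2 fold changes of 3.35 to 4.14). It spanned 0.184 to 201 CPM in B6 and 3.55 to 1505 CPM in Cast, and in both strains the libraries rich in Xist held most of it. Cidea, a lipid droplet protein of brown and beige fat, rose by 3.53 ± 0.91 (adjusted p = 8.94e-04), from 1.25 to 46 CPM in B6 to 16.6 to 451 CPM in Cast. Elovl3, an elongase of very long fatty acids, rose by 4.42 ± 1.01 and Dio2, the deiodinase that activates thyroid hormone, by 2.70 ± 0.84. Ranges of Cidea, Elovl3 and Dio2 overlapped between the strains.

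Fatty acid synthesis genes rose more often than they fell in Cast. Of 23 tested, 9 were higher, 3 lower and 11 not called, with a median of 0.45. Without Cast replicates 5 and 6, 12 were higher, 1 lower and 10 not called, with a median of 0.78. Fasn, the fatty acid synthase gene, was at 0.34 ± 0.52 (adjusted p = 0.605) and Scd1, the main stearoyl-CoA desaturase gene of fat, which shares reads, at 0.16 ± 0.19 (adjusted p = 0.497). Cast replicates 5 and 6 held 794 and 1909 CPM of Fasn, below the lowest B6 library at 3517 CPM. Without them Fasn was at 0.78 ± 0.51 (adjusted p = 0.213) and Scd1 at 0.30 ± 0.19 (adjusted p = 0.206). Acacb, whose product makes the malonyl-CoA that brakes fatty acid entry into mitochondria, rose from 114 to 456 CPM in B6 to 541 to 1579.7 CPM in Cast, with no overlap and a log2 fold change of 2.07 ± 0.41 (adjusted p = 3.25e-05). Mlxipl, the carbohydrate response factor ChREBP, rose without overlap too, by 1.71 ± 0.36. Scd3, a desaturase gene that shares reads with its neighbours, had at most 2.93 CPM in B6 and 110.0, 82.7 and 276 CPM in Cast replicates 1, 5 and 6, against 3.49 to 8.01 CPM in the other 4. Acss2, which makes acetyl-CoA from acetate, was called lower at −1.33 ± 0.50, a call lost without Cast replicates 5 and 6 (adjusted p = 0.138) and without B6 replicate 2 or 4 or Cast replicate 5 or 6 alone (adjusted p of 0.0521 to 0.0596).

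Among 26 genes of triglyceride synthesis and lipolysis, 14 rose and 3 fell with a median of 0.66 (14 and 3, 0.75, without Cast replicates 5 and 6). Plin5, a droplet coat protein that ties droplets to mitochondria, went from 4.96 to 11.1 CPM in B6 to 23.9 to 66 CPM in Cast, every Cast library above every B6 library, with a log2 fold change of 2.38 ± 0.36 (adjusted p = 2.25e-07). G0s2, which encodes an inhibitor of the lipase Atgl, was the member farthest the other way at −1.88 ± 0.39. For G0s2 the B6 libraries held 98.8 to 186 CPM and the Cast libraries 4.53 to 102 CPM. Of 24 genes of cholesterol synthesis and uptake, 11 fell and 4 rose (8 and 2 without Cast replicates 5 and 6). Over all tested genes 26.0% fell and 26.5% rose (24.4% and 22.8% without those 2). Sc5d, a late enzyme of sterol synthesis, fell without overlap from 70.3 to 145 to 17.2 to 58 CPM (log2 fold change −1.84 ± 0.27). Of 18 genes of branched-chain amino acid breakdown, 9 rose and 9 were not called, led by Bcat2 at 1.98 ± 0.20 and Bckdhb at 1.90 ± 0.16, a transaminase and a subunit of the enzyme that acts after it, both with shared reads.

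Targets of glucocorticoids, hormones that act through a nuclear receptor, were higher in Cast. Of 15 genes of glucocorticoid activation and response, 11 rose and 1 fell, with a median of 1.07 (10 rose and 5 were not called, with a median of 1.05, without Cast replicates 5 and 6). Fkbp5, a cochaperone of the receptor and one of its standard targets, ran from 18.2 to 80.2 CPM with a median of 38.7 in B6 and from 107 to 1141 CPM with a median of 303 in Cast. Cast replicate 1 was the highest, followed by replicates 6 and 5, and the lowest Cast library was above the highest B6 library. The log2 fold change was 3.31 ± 0.46 (adjusted p = 2.10e-08), and 3.14 ± 0.48 without Cast replicates 5 and 6. The metallothionein genes Mt1 and Mt2, whose products bind zinc, had log2 fold changes of 3.62 ± 0.52 and 4.18 ± 0.74. Cast replicates 1, 5 and 6 held 955, 1011 and 801 CPM of Mt1, while replicates 2, 3, 7 and 8, at 26.5 to 68.6 CPM, overlapped the B6 range of 16.8 to 58.4 CPM. Of 19 circadian clock genes, 10 rose and 9 were not called (8 and 11 without Cast replicates 5 and 6). Arntl and Clock, the clock's core activators, were at −0.27 and −0.23 and not called, though Clock was called lower without B6 replicate 7 (−0.27), Cast replicate 1 (−0.27) or Cast replicate 3 (−0.32). The time of day at which tissue was taken is not given in the labels.

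**Figure D3:**
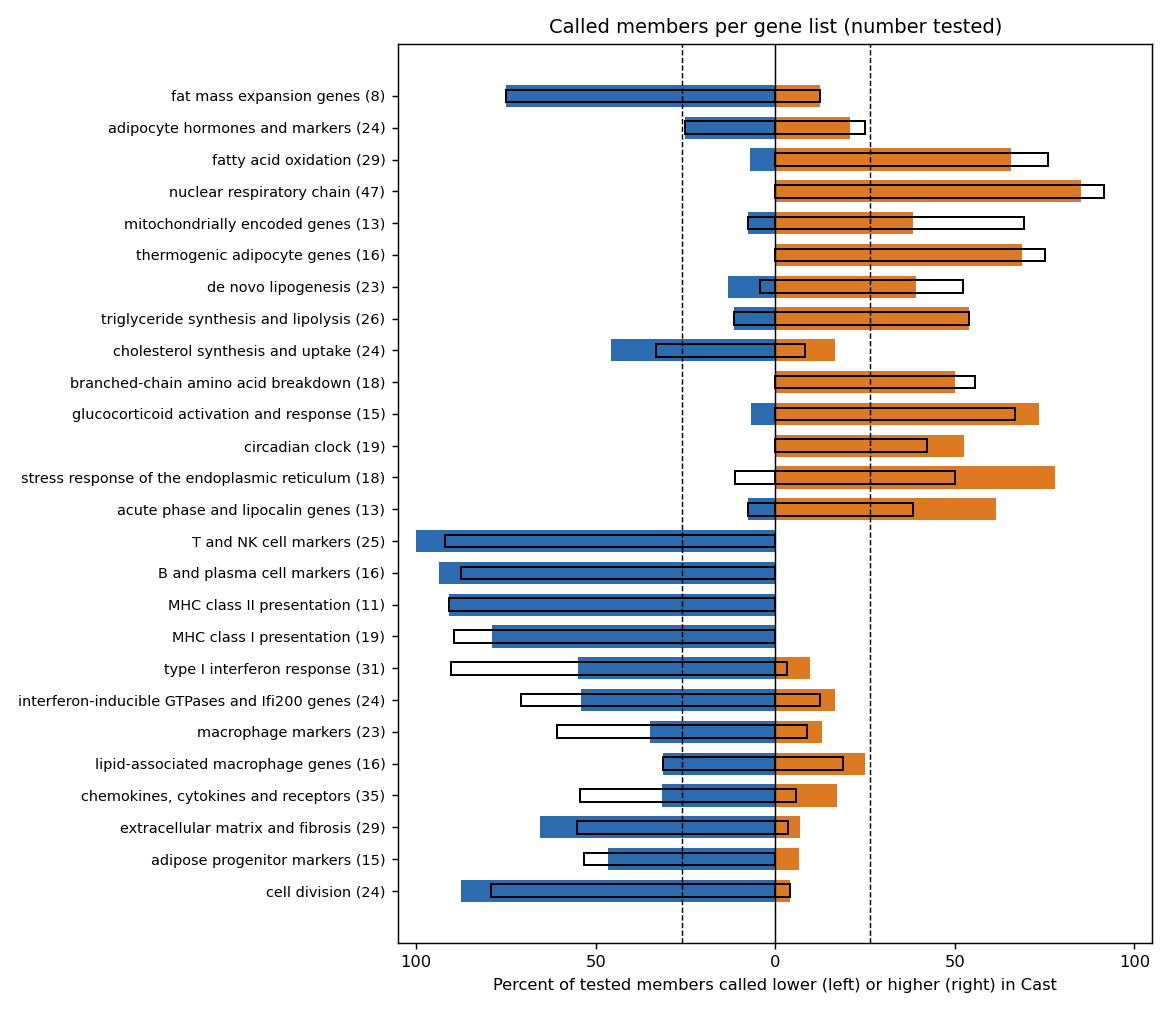
Percent of tested members called higher (orange, to the right) or lower (blue, to the left) in Cast for 26 gene lists, with filled bars for all 15 libraries and black outlines for the fit without Cast replicates 5 and 6. Dashed lines mark 26.5% and 26.0%, the shares of all tested genes called higher and lower. Nearly all T and NK cell, B cell, MHC class II and cell division genes lie to the left, and the respiratory chain to the right.

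Lymphocyte transcripts were lower in Cast throughout the lists. All 25 T and NK cell markers tested fell, with a median log2 fold change of −2.61, and 23 of them fell without Cast replicates 5 and 6. Levels were low in both strains. Cd3g, a subunit of the T cell receptor complex, had 0.453 to 1.76 CPM in B6 and 0 to 0.202 CPM in Cast, where Cast replicates 1 and 7 were at 0. Cd8a, the coreceptor of cytotoxic T cells, ran from 0.32 to 1.42 CPM with a median of 1.05 in B6 and from 0 to 0.0997 CPM with a median of 0.045 in Cast. Each B6 library was above each Cast library, and the log2 fold change was −4.34 ± 0.54 (adjusted p = 1.22e-09). Of 16 B and plasma cell markers, 15 fell, with a median of −2.58. Ighm (chromosome 12, 113418558 to 113422730), the heavy chain of immunoglobulin M, ran from 149.8 to 436 CPM with a median of 319.5 in B6 and from 3.99 to 24.1 CPM with a median of 8.87 in Cast. There was no overlap, with a log2 fold change of −4.79 ± 0.59 (adjusted p = 9.60e-10). Blk, a kinase of B cell receptor signalling, fell by 3.69 on the log2 scale, also without overlap. Ebf1, the 1 member that was not called, is also expressed in adipocytes and was at −0.16.

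The machinery that presents peptides to T helper cells showed some of the clearest differences. Of 11 MHC class II genes, 10 fell and 1 was not called, with a median of −3.46 (again 10 fell, with a median of −3.07, without Cast replicates 5 and 6), and for 9 of them every Cast library was below every B6 library, which held for 10.2% of all genes. H2-Ab1 (chromosome 17, 34263209 to 34269418), a chain of the class II molecule, ran from 179 to 327 CPM with a median of 212 in B6 and from 2.99 to 35.1 CPM with a median of 12.8 in Cast. The lowest B6 library was above the highest Cast library by over 5-fold, and the log2 fold change was −3.81 ± 0.32 (adjusted p = 3.87e-15). H2-Aa, its partner chain, fell from 261 to 482 CPM to 6.46 to 55.2 CPM, a log2 fold change of −3.64. Ciita, the coactivator that switches on all class II genes and lies on chromosome 16 away from them, had 14.5 to 28.8 CPM in B6 and 0.15 to 3.2 CPM in Cast, a log2 fold change of −3.74 ± 0.32 (adjusted p = 1.08e-14). H2-Eb2, at under 1 CPM in all 15 libraries, was not called (−1.46 ± 0.74, adjusted p = 0.0905). Cast replicates 1 and 6 were the 2 lowest libraries for H2-Ab1 and Ciita, and Cast replicates 8 and 7 the 2 highest for H2-Ab1.

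Class II genes are switched on together through short promoter elements that Ciita reads by way of bound factors, among them the X box and the Y box. The promoters of 4 members are shown, from RefSeq on GRCm38.p6, because each holds a match to 1 or both of these elements in the strain whose genome is the reference. Each runs over the 150 bases before the gene's start, 5′ to 3′ on the gene's strand. Capitals mark TGATTGG, the Y box with its inverted CCAAT core, and AACNGATG, a stretch of the X box, searched on both strands. H2-Aa held TGATTGG alone, and H2-Eb1, H2-Eb2 and H2-DMb1 held both.
H2-Aa (chr17:34287824-34287973, minus strand): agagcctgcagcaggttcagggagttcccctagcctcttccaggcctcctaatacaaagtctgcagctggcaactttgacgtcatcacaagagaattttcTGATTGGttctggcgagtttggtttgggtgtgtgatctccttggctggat
H2-Eb1 (chr17:34305717-34305866, plus strand): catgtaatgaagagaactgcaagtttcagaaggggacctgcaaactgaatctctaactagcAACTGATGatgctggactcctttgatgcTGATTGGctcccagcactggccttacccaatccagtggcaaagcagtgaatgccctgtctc
H2-Eb2 (chr17:34325525-34325674, plus strand): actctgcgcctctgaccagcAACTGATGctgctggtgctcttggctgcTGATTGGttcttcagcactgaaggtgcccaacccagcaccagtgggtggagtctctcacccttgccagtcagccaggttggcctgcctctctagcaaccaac
H2-DMb1 (chr17:34153041-34153190, plus strand): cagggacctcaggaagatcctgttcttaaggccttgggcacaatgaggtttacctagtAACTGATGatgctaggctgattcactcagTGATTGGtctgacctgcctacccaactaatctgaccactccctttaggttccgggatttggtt
All 7 class II promoters in the RefSeq table held TGATTGG, against 5.70% of 32817 promoter windows of the same length. AACNGATG was in 4 of the 7, against 1.14%. H2-Eb2, which was not called, holds both, as does H2-Eb1, which fell by 3.69 on the log2 scale. The matches describe the reference sequence, and the Cast sequence of these windows was not analysed here.

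MHC class I genes, which present peptides to cytotoxic T cells, fell too but by less. Of 19 tested, 15 fell and 4 were not called, with a median of −0.83 (17 fell and 2 were not called, with a median of −0.90, without Cast replicates 5 and 6). H2-K1, a classical class I gene that shares reads, had 707 to 994 CPM in B6 and 116 to 264 CPM in Cast. The ranges were far apart, with a log2 fold change of −2.04 ± 0.18 (adjusted p = 1.96e-14). Genes of this region differ in sequence between strains, and how the authors assigned such reads is not given in the sources used here.

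Interferon-stimulated genes were lower in Cast, and by how much depended on Cast replicates 5 and 6. Of 31 genes of the type I interferon response, 17 fell and 3 rose with all libraries, with a median of −0.52, and 28 fell and 1 rose without those 2, with a median of −1.72. Rsad2, the antiviral enzyme viperin, ran from 16.9 to 33.9 CPM with a median of 23.1 in B6, and stood at 1.18 to 4.16 CPM in 5 Cast libraries, and at 16.8 and 9.36 CPM in Cast replicates 5 and 6. Its log2 fold change was −2.17 ± 0.36 with all libraries and −3.40 ± 0.35 without them (adjusted p = 8.24e-12). Ifit3, an interferon-induced RNA-binding protein gene that shares reads, stood at 18 to 34 CPM in B6, at 1.51 to 3.06 CPM in 5 Cast libraries, and at 39.3 CPM in Cast replicate 5, above every B6 library. Mx1, an antiviral GTPase, changed sign: it had 1.71 to 3.64 CPM in B6, 44.9 CPM in Cast replicate 5 and 0.224 to 1.47 CPM in the 5 libraries other than replicates 5 and 6, so that the log2 fold change was 1.46 ± 0.57 with all libraries and −1.69 ± 0.43 without those 2, both called. Mx2, its paralog, was higher in Cast either way, at 4.18 ± 0.50 and 1.81 ± 0.33, with every Cast library above every B6 library.

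The promoters of Rsad2 and Ifit3 are shown because both genes were low in 5 Cast libraries and carry the element through which interferon acts. Each runs over the 170 bases before the start on GRCm38.p6, from RefSeq, with capitals marking GAAA, any 2 bases and GAAA, or the reverse complement, the core of the interferon-stimulated response element.
Rsad2 (chr12:26456453-26456622, minus strand): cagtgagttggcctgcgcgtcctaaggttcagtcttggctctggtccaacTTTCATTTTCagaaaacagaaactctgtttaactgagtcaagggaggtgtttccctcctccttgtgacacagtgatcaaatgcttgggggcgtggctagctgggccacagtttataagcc
Ifit3 (chr19:34583359-34583528, plus strand): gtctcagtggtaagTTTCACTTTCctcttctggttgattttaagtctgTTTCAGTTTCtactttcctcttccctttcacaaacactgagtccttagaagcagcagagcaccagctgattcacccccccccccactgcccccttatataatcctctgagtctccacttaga
The motif was present in Rsad2 once and in Ifit3 at 2 places. Of 32817 promoter windows of that length, 1.86% held at least 1 match. Rsad2 and Ifit3 were shown for holding the motif, so that share is no test of them. The promoters of Tgtp2 and Ifi44 were searched too, and Tgtp2 held 1 match. Ifi44, which fell (log2 fold change −3.20 ± 0.47), had no match in its window, which says only that these letters are not there.

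Interferon-inducible GTPases held some large falls in Cast. Of 24 such genes and Ifi200 genes, 13 fell and 4 rose (17 and 3 without Cast replicates 5 and 6). Iigp1, an immunity-related GTPase that attacks vacuoles of parasites, ran from 26 to 69.8 CPM with a median of 45.1 in B6 and from 0 to 2.14 CPM with a median of 0.0399 in Cast. Cast replicates 3 and 6 had no read, replicate 8 had the highest value, and the log2 fold change was −7.00 ± 0.62 (adjusted p = 4.46e-14). Gbp10, a guanylate-binding protein gene that shares reads with its neighbours, fell by 4.98. Tgtp2 fell by 6.34, but it shares reads with Tgtp1, which is 99.8% identical over 2811 bases. The sum of both had 46.0 CPM in B6 and 14.4 CPM in Cast, a ratio of 0.312.

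Macrophage genes divided. Of 23 markers, 8 fell and 3 rose, with a median of −0.42 (14 and 2, −0.74, without Cast replicates 5 and 6). Over all tested genes 26.0% fell and 26.5% rose (24.4% and 22.8% without those 2). Adgre1, which encodes the pan-macrophage antigen F4/80, fell by 1.71 on the log2 scale, from 47.7 to 163 CPM in B6 to 14.7 to 37.9 CPM in Cast with no overlap. Ms4a7 (chromosome 19, 11321039 to 11336146), a membrane protein gene of macrophages, ran from 5.18 to 16.3 CPM with a median of 7.11 in B6 and from 0 to 0.15 CPM with a median of 0.0598 in Cast. Almost no reads were counted for Ms4a7 in Cast, with a log2 fold change of −7.03 ± 0.55 (adjusted p = 4.72e-16). Folr2, a folate receptor of resident macrophages, fell by 2.86 with no overlap. Cd14, the coreceptor for bacterial lipopolysaccharide, went up by 2.63 ± 0.41, with 274 and 255 CPM in Cast replicates 5 and 6 against 12.1 to 40.9 CPM in the other 5, and by 0.73 without those 2. Retnla, a secreted protein of alternatively activated macrophages, ran from 134 to 333 CPM with a median of 203 in B6 and from 0.427 to 12.5 CPM with a median of 1.87 in Cast. No library overlapped, and the log2 fold change was −5.72 ± 0.42 (adjusted p = 6.36e-17).

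Genes of lipid-associated macrophages, the cells that take up lipid from adipocytes, did not move as 1 group. Of 16 tested, 5 fell and 4 rose, with a median of −0.27. Over all tested genes 26.0% fell and 26.5% rose, so the list was near those shares. Trem2, the lipid receptor that marks them, rose from 2.58 to 45.3 CPM in B6 to 37.9 to 136 CPM in Cast (log2 fold change 2.71 ± 0.52, adjusted p = 1.48e-05), with B6 replicate 6 alone inside the Cast range. Mmp12, a macrophage elastase, and Itgax, the integrin CD11c, which shares reads, went the other way at −5.47 ± 1.13 and −3.87 ± 0.83. B6 replicates 5 to 8 carried most of Mmp12, at 55.3 to 239.7 CPM, while B6 replicates 1 to 4, at 0.919 to 2.26 CPM, overlapped the Cast range of 0.308 to 2.53 CPM. Ccr2, the chemokine receptor of incoming monocytes, fell (log2 fold change −3.19 ± 0.34), from 27.1 to 109.6 CPM in B6 to 1.42 to 14.7 CPM in Cast, without overlap. Over all 35 chemokines, cytokines and receptors tested, 11 fell and 6 rose with a median of 0.05, where 26.0% and 26.5% of all tested genes did. Once Cast replicates 5 and 6 were left out, 19 fell and 2 rose with a median of −1.30, where 24.4% and 22.8% of all tested genes did.

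Transcripts of matrix and cell division genes were lower in Cast. Of 29 genes of the extracellular matrix, 19 fell and 2 rose, with a median of −0.95 (16 and 1, −0.76, without Cast replicates 5 and 6). Col15a1 (chromosome 4, 47208161 to 47313167), a basement membrane collagen, ran from 815 to 1051 CPM with a median of 881 in B6 and from 29.1 to 344 CPM with a median of 196 in Cast. The strains did not overlap, and the log2 fold change was −2.40 ± 0.31 (adjusted p = 2.65e-09). Col6a1, a subunit of the collagen VI mesh around adipocytes, fell by 1.83 on the log2 scale, and Tnc, the matrix protein tenascin C, by 2.39, both without overlap. Timp1, an inhibitor of matrix proteases, was called higher at 2.28 ± 0.64, on 56.1 and 58.6 CPM in Cast replicates 5 and 6 while the other 5 held 1.11 to 3.21 CPM, and leaving out those 2 gave −1.12 ± 0.54 (adjusted p = 0.0803). Of 15 progenitor markers 7 fell and 1 rose, where 26.0% and 26.5% of all tested genes did. Pi16, a marker of the reticular progenitors of fat, fell by 2.11 with no overlap. Of 15 endothelial markers 5 fell and 10 were not called, with a median of 0.02, where 26.0% of all tested genes were called lower. Without Cast replicates 5 and 6, 7 endothelial markers fell and 8 were not called, with a median of −0.36.

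Of 24 cell division genes, 21 fell and 1 rose, with a median of −1.86 (19 and 1, −1.74, without Cast replicates 5 and 6). Bub1b, a kinase of the spindle checkpoint, ran from 4.15 to 11 CPM with a median of 7.35 in B6 and from 0.247 to 1.33 CPM with a median of 0.634 in Cast, and the strains did not overlap (log2 fold change −3.37 ± 0.35, adjusted p = 6.89e-12). Mki67, the proliferation antigen Ki-67, fell by 2.68 on the log2 scale. Tyms, a nucleotide synthesis enzyme that shares reads, was the member that rose, at 0.34 ± 0.10.

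Some genes were near silent in 1 strain and expressed in the other. Calb1 (chromosome 4, 15881264 to 15908064), the calcium-binding protein calbindin known from neurons and kidney, ran from 0 to 0.0619 CPM with a median of 0 in B6 and from 11 to 153 CPM with a median of 36.5 in Cast. In 5 of 8 B6 libraries it had no read, every Cast library had at least 11 CPM, and the log2 fold change was 11.41 ± 0.73 (adjusted p = 1.47e-19). The highest mean among the other 6 strains was 0.0977 CPM in PWK, below every Cast library. Gad1, which makes the transmitter GABA, had at most 0.263 CPM in B6 and 7.27 to 28.5 CPM in Cast (log2 fold change 7.68 ± 0.92), and at most 0.118 CPM in 129 as the mean of another strain. Oprk1, the kappa opioid receptor gene, with 1.46 to 12.3 CPM in Cast and 0.277 CPM in NZO as the next highest mean, and Tas1r1, a taste receptor subunit gene, with 22.4 to 47.9 CPM in Cast and 0.304 CPM in WSB as the next highest, showed the same order. Chrnb4, a nicotinic receptor subunit gene, had 2.73 to 13.5 CPM in Cast and at most 0.0889 CPM in B6, but a mean of 15.5 CPM in PWK, the other strain in which it was expressed at that level. Mrap2, an accessory protein of melanocortin receptors, had 3.36 to 7.45 CPM in Cast, at most 0.111 CPM in B6 and a mean of 8.5 CPM in NZO.

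Abundant regulators and enzymes were among those gained. Irf4 (chromosome 13, 30749226 to 30766927), a transcription factor that in adipocytes links fasting to lipolysis and thermogenesis, ran from 10.2 to 36.3 CPM with a median of 19 in B6 and from 163 to 1278 CPM with a median of 553 in Cast. All 7 Cast libraries lay above all 8 B6 libraries, with a log2 fold change of 4.89 ± 0.57 (adjusted p = 2.07e-10), and the highest mean of the other 6 strains was 453 CPM in WSB. Nr4a3, an orphan nuclear receptor induced by cAMP, rose from 2.24 to 5.51 CPM in B6 to 14.2 to 904 CPM in Cast (log2 fold change 6.01 ± 0.63), with Cast replicate 1 at 904 CPM. Cyp2b10, a drug-metabolising P450 known as a target of the receptor CAR, had 0.285 to 1.29 CPM in B6 and 14.6 to 314 CPM in Cast (log2 fold change 7.27 ± 0.61, adjusted p = 4.66e-15). For Nr4a3 and Cyp2b10 the highest means of the other 6 strains were 16.7 and 23.3 CPM, both in WSB. Pus7l, a pseudouridine synthase gene, was tightly placed in B6 at 3.22 to 4.05 CPM and reached 56.5 to 633 CPM in Cast, a log2 fold change of 5.75 ± 0.32. None of the other 6 strains exceeded a mean of 4.49 CPM in WSB for Pus7l. S100b, a calcium-binding protein gene of glia and adipocytes, rose by 4.25 ± 0.49, and Cast replicates 5 and 6 were its lowest Cast libraries at 10.2 and 10.5 CPM. The S100b mean was 80.8 CPM in Cast, 243 CPM in PWK and 46.5 CPM in WSB.

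Falls to near 0 in Cast were found as well. Since the assignment of reads of Cast sequence is not known, few reads and few transcripts cannot be told apart here. Fam213b (chromosome 4, 154895504 to 154899135), which encodes a prostaglandin F synthase, ran from 30.8 to 63.5 CPM with a median of 51.9 in B6 and from 0 to 0.449 CPM with a median of 0.028 in Cast. It had the smallest adjusted p of the genes given here, 1.14e-26, with a log2 fold change of −8.73 ± 0.39, and the lowest mean of another strain was 10.3 CPM in WSB. Tmem45b, a membrane protein gene, had 108 to 292 CPM in B6 and 0 to 23.9 CPM in Cast, a log2 fold change of −5.38 ± 0.72, and means of 139 CPM in NZO to 385 CPM in NOD elsewhere. Unc5a, a netrin receptor gene, fell (log2 fold change −6.43 ± 0.54), from 31.8 to 69.6 CPM to 0.179 to 1.64 CPM. It was low in most other strains too, with means of 0.416 CPM in WSB, 1.23 in 129, 2.55 in NOD, 4.25 in PWK and 6.36 in NZO. Only AJ, with a mean of 26.1 CPM, was nearer to B6. Aldh1a7, an aldehyde dehydrogenase gene, fell (log2 fold change −4.25 ± 0.50), from 161 to 267 CPM to 1.03 to 24.5 CPM, with Cast replicates 5 and 6 the lowest. Tph2, the neuronal enzyme of serotonin synthesis, had 0.74 to 60.1 CPM in B6, with 60.1 CPM in replicate 6, and no read in 6 of 7 Cast libraries. Tph2 means in the other strains ran from 0.013 CPM in PWK and 0.0216 CPM in WSB to 63.4 CPM in NZO. Dct, a melanin synthesis enzyme of pigment cells, had no read in any Cast library and 0.811 to 2.33 CPM in B6, which makes B6 at least 17.2-fold higher against a floor of 3 counts per Cast library. Dct means in the other strains ran from 0.0474 CPM in PWK and 0.0487 CPM in 129 to 1.32 CPM in WSB.

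Cast replicates 5 and 6 carried a stress and acute phase pattern that made up part of the strain difference. Of 18 genes of the stress response of the endoplasmic reticulum, 14 rose and 4 were not called with all libraries (median 0.89), against 9 that rose and 2 that fell without those 2 (median 0.26). Chac1, a target of the stress factor Atf4, ran at 3.04 to 5.99 CPM in B6, at 7.53 to 20.8 CPM in 5 Cast libraries and at 85.3 and 97.1 CPM in Cast replicates 5 and 6. Its log2 fold change was 2.97 ± 0.36, and 1.5 ± 0.25 without them (adjusted p = 2.54e-06). Of 13 acute phase genes, 8 rose and 1 fell (5 and 1 without those 2). Saa1, a serum amyloid gene, had 72.9 and 150.005 CPM in those libraries, at most 2.28 CPM in the other Cast libraries and at most 0.221 CPM in B6, for log2 fold changes of 8.04 with and 2.62 without them. Il6, the cytokine gene that drives the acute phase, was called higher at 3.45 ± 0.85 on 13.5 and 4 CPM, and was at −1.49 ± 0.76 without them (adjusted p = 0.103), and the call was lost without replicate 5 alone (log2 fold change 1.67, adjusted p = 0.0621). Socs3, an inhibitor that Il6 signalling induces, stood at 7.94 to 13.8 CPM in B6, 7.9 to 13.7 CPM in 5 Cast libraries and 164 and 86 CPM in those 2. The same libraries were low in adipocyte transcripts, at 6.88 and 7.32 in mean log2 CPM of the 24 adipocyte genes against 8.65 to 8.98 in the other 5 and 8.46 to 9.18 in B6.

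**Figure D4:**
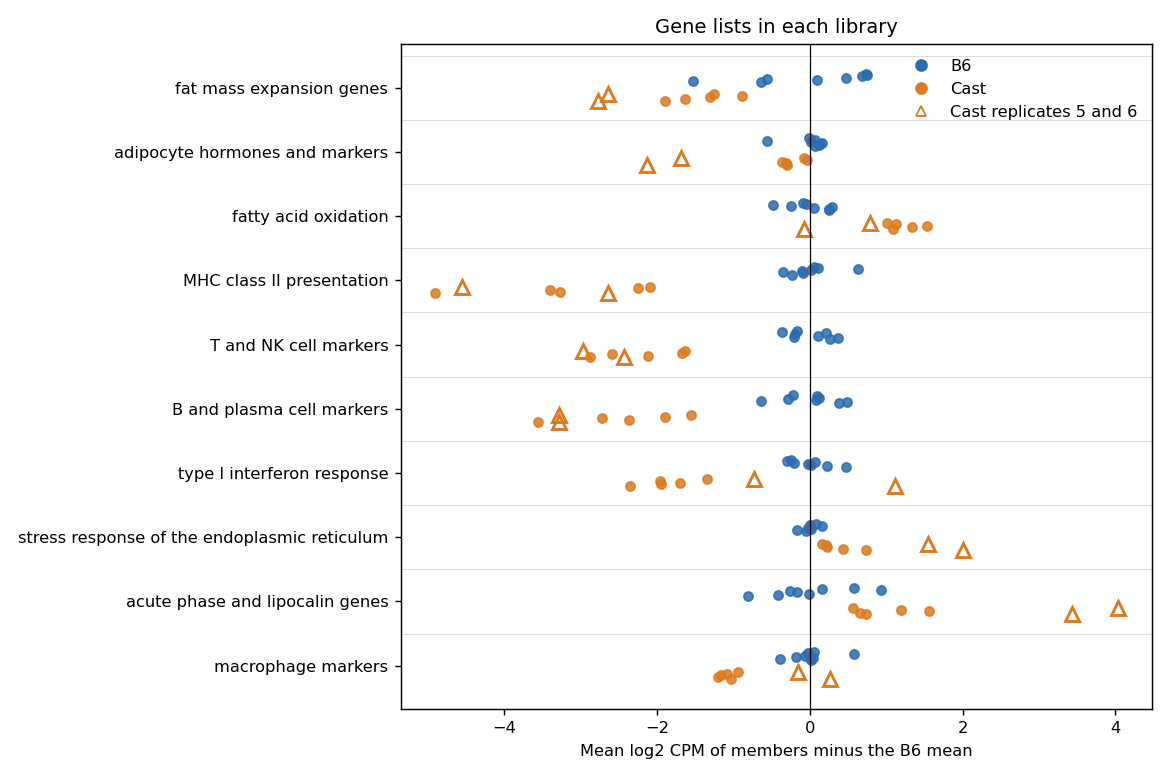
Mean log2 CPM of the members of 10 gene lists in each library, drawn as the difference from the B6 mean (1 point per library, B6 in blue, Cast in orange, Cast replicates 5 and 6 as open triangles). For adipocyte, interferon, stress response and acute phase genes the triangles stand apart from the other 5 Cast libraries. They also lie outside those 5 for fat mass, fatty acid oxidation and macrophage genes. For MHC class II, T and NK cell and B cell genes they lie among them or next to them.

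Interferon-stimulated genes were high in those libraries as well, and lymphocyte genes were not. Mean log2 CPM of type I interferon genes was 4.69 and 2.84 in Cast replicates 5 and 6, against 1.22 to 2.23 in the other 5 Cast libraries and 3.27 to 4.04 in B6. For T and NK cell markers it was −2.05 and −2.59, inside the −2.50 to −1.25 of the other 5 or just under, and B6 stood at 0.02 to 0.74. Macrophage markers were at 5.47 and 5.06 in replicates 5 and 6, among the B6 libraries (4.82 to 5.79), and at 4.0 to 4.27 in the other Cast libraries.

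Some of the largest differences were between near-identical copies of a gene, with 1 copy high in each strain. mt-Co2, a subunit of cytochrome oxidase encoded in the mitochondrial genome, had 1948 CPM in B6 and 16.8 CPM in Cast, while Gm13341, a nuclear copy on chromosome 2 that is 95.9% identical over 684 bases, had 0.0709 CPM in B6 and 1471 CPM in Cast. The sum of both was 1949 ± 446 CPM in B6 (SD, n = 8) and 1487 ± 883 CPM in Cast (SD, n = 7), with ranges of 1359 to 2509 and 359 to 2954 CPM that overlapped. A ribosomal protein gene and its pseudogene also differed in opposite directions. Rpl19 had 17.6 CPM in B6 and 299 CPM in Cast, Rpl19-ps11 had 218 and 1.44 CPM, and the sum was 1.28-fold higher in Cast, with ranges of 214 to 257 CPM in B6 and 269 to 367 CPM in Cast that did not overlap. Other pairs differed more in their sum. Serpina3m and Serpina3k, hepatic serine protease inhibitor genes, summed to 17.1 ± 12.7 CPM in B6 and 1355 ± 1009.6 CPM in Cast, with ranges of 6.94 to 46.0 and 270.04 to 3204 CPM that did not overlap. Tmem254a and Tmem254b, identical over 1447 bases, summed to 121 CPM in B6 and 13.6 CPM in Cast. Of all genes tested, 22.1% shared reads, and of these 55% were called, against 51.8% of the genes that did not.

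Genes with alleles known from inbred strains gave mixed differences. Nnt, the mitochondrial transhydrogenase gene that carries a deletion in a B6 substrain, was higher in Cast by 0.49 ± 0.15 (adjusted p = 0.00539), at 18.7 to 27.9 CPM in B6 and 17.4 to 46.9 CPM in Cast, where replicates 5 and 6 were the lowest. Glo1, a glyoxalase gene duplicated in some strains, rose by 1.08 ± 0.09 (adjusted p = 6.71e-16), with 59.4 to 73.6 CPM in B6 and 88.4 to 168 CPM in Cast. Its Cast libraries lay above all B6 libraries. Nlrp1b, an inflammasome sensor gene, fell (log2 fold change −2.76 ± 0.44). Hc, Oas1b and Apobec3 were not called with all libraries. Without Cast replicates 5 and 6, Oas1b, an antiviral enzyme gene, and Apobec3, a cytidine deaminase gene that restricts retroviruses, were called lower at −0.61 and −0.38.

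Most of the differences between B6 and Cast were on the Cast side of the 8 strains. Of the genes called higher in Cast, 60.6% had in Cast the highest of the 8 strain means, against 20.9% of all genes tested, and 20.5% had in B6 the lowest, against 7.24%. Of the genes called lower in Cast, 61.7% had in Cast the lowest mean, against 20.4% of all genes, and 16.8% had in B6 the highest, against 6.28%. These shares use the called direction and so describe the calls. For MHC class II genes the mean log2 CPM of members was 4.46 in B6, the highest of the 8 strains, and 1.16 in Cast, the lowest, with WSB next at 2.27. For fat mass genes B6 stood at 6.91, among 129, AJ, NOD and NZO at 6.73 to 7.12, while Cast at 5.13 stood with WSB at 4.82. For fatty acid oxidation B6 at 6.45 was among the lower strains and Cast at 7.42 was next to WSB, the highest, at 7.54. Without Cast replicates 5 and 6, Cast was at 7.67 on this list, above WSB. On the type I interferon list NZO was highest at 3.97, B6 next at 3.57 and Cast lowest at 2.30.

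**Figure D5:**
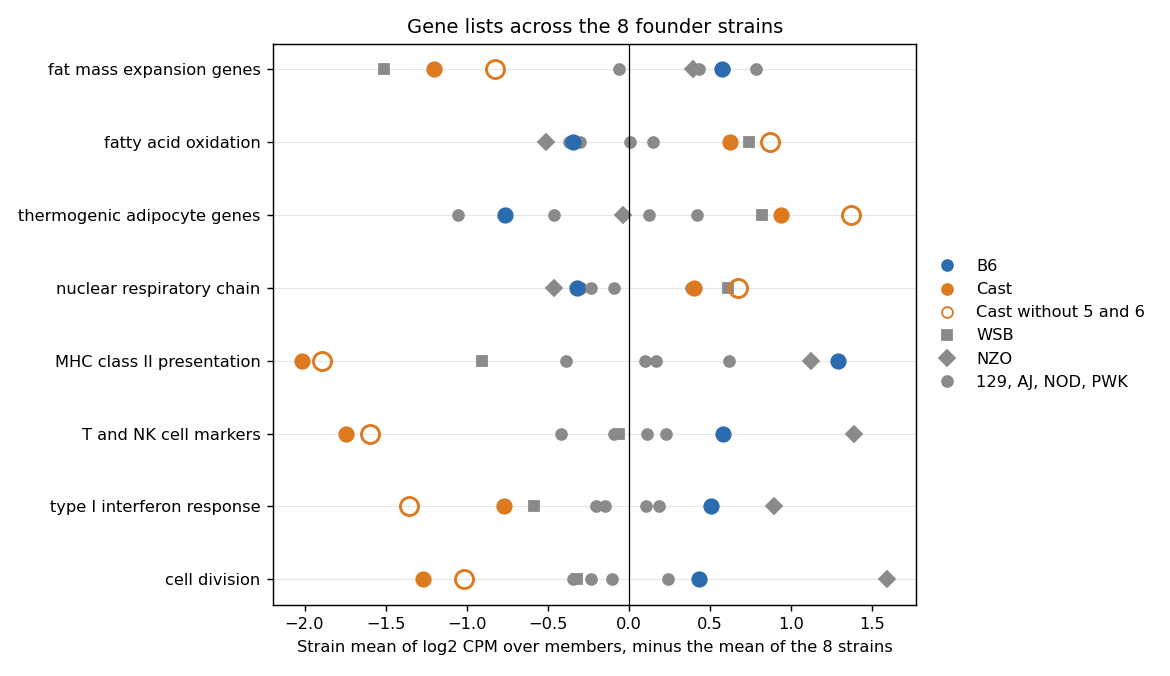
Mean log2 CPM of the members of 8 gene lists in each of the 8 strains, drawn as the difference from the mean of the strains (B6 in blue, Cast in orange, Cast without replicates 5 and 6 as an open orange circle, the other 6 strains in grey with WSB as a square and NZO as a diamond). Cast is the lowest strain for MHC class II, T and NK cell and cell division genes, and B6 is the highest strain for MHC class II.

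Called genes were spread over all chromosomes. The share called was 49.2% to 56% on each autosome, and 50.7% on the X chromosome. On the X, 17.6% of genes were higher and 33.1% lower in Cast, against 26.5% and 26.0% over all genes. With log2 Xist as a covariate 5167 genes were higher and 4972 lower over all chromosomes.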

How the data were processed

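RNA-seq libraries of adipose tissue were made with poly(A) selection and an added ERCC spike-in mix, per the labels' protocols. The deposited counts are expected counts per gene made by the authors, estimates that share a read out among the genes it matches, so 21.1% of values were not whole. They also deposited log2 values made with the variance-stabilising transformation of DESeq2, per the submitters' processing notes, and gene positions on GRCm38. Which aligner and counter they used is not given in the sources used here. A gene is said to share reads where its value was not whole in over 50% of libraries (22.1% of genes tested).

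Expected counts were rounded. Of 21169 genes in the table, 18603 passed edgeR's filterByExpr by strain and 2566 were set aside. edgeR 4.0.16 (R 4.3.3) fitted 1 mean per strain over all 61 libraries with TMM factors, robust quasi-likelihood and the contrast Cast minus B6, 2-sided, with Benjamini-Hochberg adjustment over all genes tested, called at an adjusted p under 0.05. Errors of fold changes are standard errors. CPM were scaled by TMM, which had factors of 0.976 to 1.16 in B6 and 0.854 to 1.18 in Cast, and 2 counts were added before logs for list means and library SDs. On simulated counts for this comparison over 18603 genes, with 100 genes changed by 1 and 100 by 2 on the log2 scale, 59% and 87% were recovered, and 3.31% of 151 calls were on unchanged genes. The simulation had few changed genes, the same spread in every strain and no libraries set apart, so these rates do not carry over to the calls given here. Alternatives used RLE factors, other filters, DESeq2 1.42.0, limma 3.58.1 on the deposited log2 values, the replicate number as a block, B6 and Cast libraries alone, log2 Xist or 2 surrogate variables (sva 3.50.0) as covariates, fewer genes, a fold change of 2, unrounded counts, and fewer libraries. Identity between gene copies came from blastn 2.17.0.

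Gene lists are described by counts and medians and were not tested as sets. The comparison, the lists and the genes were chosen with earlier results of these data known. Genes named are those with the largest differences without overlap, the largest at 100 CPM or more, up to 4 called members of each list and the one farthest in the opposite direction, genes with alleles known from inbred strains, and genes at 0 in 1 strain with at least 5 CPM in the other. Adipoq, Ucp1, Cfd, Scd1, Fasn, Arntl, Clock, Ebf1, Adgre1, H2-K1, H2-Eb2, Ifit3 and Dct fall outside that rule and were chosen after their values were seen, as were the pairs of gene copies.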

Additional observations from a re-analysis of the deposited data

Results flagged for a closer look

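In 23 of 220 groups of values tested, each a gene or a list mean within B6 or within Cast, the library at an end stood further from its nearest neighbour than Dixon's 95% value for the group's size. Chance flags about 1 in 20 such groups. Values are in log2 CPM.

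B6 replicate 6, a library with genital duct transcripts, stood apart most often. It was the lowest B6 library for the mean of adipocyte hormones and markers (8.46), Abcd2 (8.45), Agt (5.36), Aldh1a7 (7.33), Ebf1 (6.61) and Scd1 (15.23), and the highest for the mean of MHC class II genes (5.09), Adgre1 (7.35), H2-K1 (9.96), Ms4a7 (4.03) and Oprk1 (−2.64). Other B6 libraries that stood apart were replicate 2, lowest for the mean of extracellular matrix genes (7.61) and for Tmem45b (6.76), replicate 3, lowest for Sc5d (6.14), replicate 4, highest for Nr4a3 (2.48), and replicate 7, lowest for Arntl (3.01).

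In Cast, replicate 5 was highest for Ifit3 (5.30) and Mx1 (5.49) and lowest for Chrnb4 (1.48) and Scd1 (15.26). Replicate 2 was highest for Ppargc1a (6.14), replicate 3 lowest for Akr1b7 (−2.62), and replicate 8 highest for Tph2 (−3.66), as the library with the only Tph2 reads.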

How the results depend on the processing

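The numbers of genes called higher and lower, 4937 and 4832, stayed within 1.5 times of these under most alternatives, and leaving out single libraries gave 4634 to 4983 and 4577 to 4901. A mean of at least 5 CPM left 3076 lower, with fewer genes tested. A test against a fold change of 2 left 701 higher and 1350 lower. Samples with the same replicate number share only a number in the labels, and their deviations correlated at 0.05 to 0.30, with 4 of 7 Cast libraries closest to their own number. A replicate block gave 4925 and 4909, and the replicate block with B6 and Cast libraries only gave 3271 and 3824, against 4056 and 3946 for these libraries without the block. The calls of Mt1, Mt2, Agt, Cd14, Timp1, Socs3, Tyms and Nnt were lost in that block fit (adjusted p of 0.0582 to 0.802, with log2 fold changes of 2.38 for Mt1 and 3.21 for Mt2). With B6 and Cast libraries only and no block, the calls of Abcd2, Acss2, Timp1, Mx1 and Nnt were lost (adjusted p of 0.0531 to 0.198). The cause was not tested. Scaling to library totals left 825 genes without overlap that were higher in Cast. Genes at 0 in 1 strain numbered 3, and 7 without Cast replicates 5 and 6, which is fewer libraries to be at 0. Called genes of the mitochondrial genome numbered 8, and 4 without genes that share reads, which is fewer genes tested. Over named genes, 6329 values kept direction and call, 171 lost the call, 25 gained it and 25 changed sign.

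The sign changes were these, and their cause was not tested beyond the libraries named. Without Cast replicates 5 and 6, Socs3 was at −0.082, Il6 at −1.49, Timp1 at −1.12 and Mx1 at −1.69, and with log2 Xist added Il6 was at −1.21, Timp1 at −0.82 and Mx1 at −1.74. Mx1 was also at −1.31 without Cast replicate 5, at −0.92 with the replicate block in B6 and Cast alone, and at −0.14 by limma. By limma Ifi202b was at −0.025 and Fasn at −0.024. Leaving out both B6 replicates 5 and 6 put Akr1b7 at 0.04. Fits without single libraries ranged from −0.86 (without Cast replicate 8) to 1.98 for Ifi202b, from −0.76 (without Cast replicate 3) to 1.16 for Hc, from −1.31 to 1.67 for Mx1, from −0.42 to 0.0616 for Oas1b, with 7 fits of the opposite sign, and from −0.24 to 0.0404 for Apobec3, with 3. Adipoq was called lower by limma (−0.79, adjusted p = 0.0283), and H2-Eb2 by limma (−0.32) and with surrogate variables (−1.71). Clock was called lower by limma (−0.25), with surrogate variables (−0.25) and at a mean of at least 5 CPM (−0.26), with adjusted p of 0.0317 to 0.0427.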
